A study of Mus musculus with 172 samples.

Results

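Genes that make or move bile acids were followed in the liver of BXD mice with and without 6 h of sleep deprivation (SD), and all 9 chosen were listed among the 14107 genes of the liver tables. They were picked by name for their role: *Cyp7a1* and *Cyp8b1* (classical synthesis), *Cyp27a1* and *Cyp7b1* (alternative synthesis), *Abcb11* and *Abcb4* (canalicular export), *Slc10a1* (sinusoidal uptake), and the nuclear receptors *Nr1h4* and *Nr0b2*. The 78 liver libraries held 39 control (Ctr) pools from mice left undisturbed and 39 SD pools from mice kept awake by gentle handling from ZT0 to ZT6, all young adult males killed at ZT6. In each condition there was 1 pool for each of 33 BXD/RwwJ recombinant inbred lines. The labels tie BXD96, BXD97 and BXD103 to BXD48, BXD65 and BXD73 (as 48a, 65a and 73b), so not all lines are unrelated. The parental strains C57BL/6J (B6) and DBA/2J (D2) had 2 pools each, taken early and late in the collection. Each reciprocal F1 (BD and DB) had 1 pool. The 39 pools stand for 37 strains, and counts of lines below take each parental pool as a line. A pool held equal RNA amounts from about 3 mice of a line (fewer in BXD79, BXD85 and BXD101), so the spread between mice of a line is not seen, and an inbred line is 1 genotype. The older BXD/TyJ lines (BXD05, BXD29, BXD29t and BXD32), with 1 pool per condition, were kept for an alternative and for checks. Levels are the deposited log2 CPM, that is reads relative to the TMM-scaled library total on a log2 scale, of whole liver, in which fewer cells of a type and less RNA per cell cannot be told apart.

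Bile acids are made from cholesterol in hepatocytes. CYP7A1, the rate-limiting enzyme, opens the classical route, and CYP8B1 adds the hydroxyl group that sends the product towards cholic acid, whereas CYP27A1 and CYP7B1 serve the alternative route through oxysterols. Conjugated bile acids leave the hepatocyte into the canaliculus through the bile salt export pump ABCB11, with phospholipid supplied by ABCB4, and those that return from the gut in portal blood are taken up by the sodium-dependent carrier SLC10A1 (NTCP). The farnesoid X receptor (FXR, encoded by *Nr1h4*) senses bile acids and induces the small heterodimer partner (SHP, encoded by *Nr0b2*), which restrains *Cyp7a1* and *Cyp8b1*; FXR also induces *Abcb11*. Synthesis and its regulators are known to follow feeding and the time of day.

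Hepatocyte identity matched the label: 9 of the 10 hepatocyte markers were listed (all but *Tf*), none at 0 in any library, and their summed level spanned 11.99 to 12.74 log2 CPM in Ctr and 12.08 to 12.53 in SD, with none of the 9 rising or falling. Markers of Kupffer cells (7 of 7 listed, median summed level 8.89 in Ctr and 8.99 in SD) and of cholangiocytes (8 of 8, 8.08 and 7.97) had 1 and 2 genes lower in SD and none higher, whereas those of B cells fell (6 of 6 called, with *Cd79a*, *Ms4a1* and *Faim3* among those at 0 reads in at least 1 library, and a summed level ranging from 2.95 to 5.11 in Ctr and from 1.24 to 4.04 in SD). Endothelial markers had 4 of 7 higher and 1 lower (median summed level 8.83 in Ctr and 8.91 in SD), and stellate markers 1 of 8 higher and 1 lower. Periportal hepatocyte markers had 1 of 8 higher and 2 lower, and pericentral ones 1 of 8 lower. Of all liver genes 44.2% were called for SD in the fit below (21.5% higher, 22.6% lower). Reads of abundant liver genes hardly varied between libraries, as given below. For hepatocyte markers a missing call is therefore not a missing change. The part of these cells in the results was not tested.

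One property of the liver libraries touched most of the values below. Total reads here are reads recovered from the deposited values and summed over the 14107 listed genes. They are not the reads sequenced, of which the paper reports more. Per library they ran from 5034166 to 8269401 in Ctr (median 6752508) and from 4681101 to 8009362 in SD (median 6563242). The reads of the best-expressed genes did not follow these totals. *Slc10a1* had 1739.8 reads on average with a coefficient of variation of 4.12% over the 78 libraries, against 10.3% for the totals themselves. No liver gene passed 1.78 reads per exonic base on average (*Alb*, with 3640.5 reads), whereas the highest in cortex was 43.5. The 9 members lay high on this scale, from 0.324 reads per exonic base for *Nr0b2* (above 86.9% of 13218 genes) to 1.10 for *Slc10a1* (above 99.5%). In CPM, these members were higher in libraries with fewer reads. The correlation of level with log2 total reads over the 39 Ctr pools was r = -0.96 for *Slc10a1* (Spearman rho = -0.93), -0.90 for *Cyp27a1* (rho = -0.86), -0.88 for *Abcb11* (rho = -0.78), -0.84 for *Nr1h4* (rho = -0.81) and -0.77 for *Cyp8b1* (rho = -0.74), each with a permutation p of 1e-05, the smallest that 100000 resamples can give, and an adjusted p of 1.7e-05 over 27 relations. It was weaker for *Cyp7a1* (r = -0.37, rho = -0.40, permutation p = 0.02, adjusted p = 0.024) and small for *Nr0b2* (r = -0.09, rho = -0.04, permutation p = 0.59, adjusted p = 0.62). All 5 strong relations kept r between -0.751 and -0.935 without the 2 pools farthest from the median total. Over all 14107 genes the median r was 0.10, and 14.1% of genes had r below -0.5. What sets this relation was not tested. The fit with total reads as a covariate, an alternative chosen after seeing the data like that without BXD70, is given wherever it changes the call of a member, and as counts for the wider pathway.

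**Figure D1:**
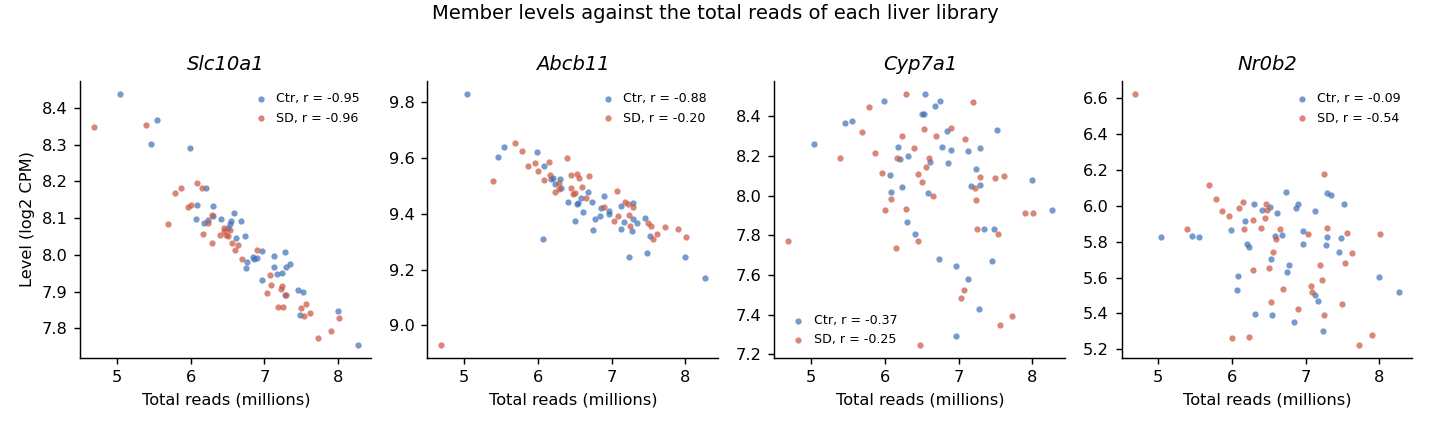
Level in log2 CPM (y) against total reads (x) for Slc10a1, Abcb11, Cyp7a1 and Nr0b2, with 1 point per liver library (39 Ctr in blue, 39 SD in red) and Pearson's r per condition. Slc10a1 fell along a narrow line in both conditions, Abcb11 did so except for the SD library of BXD70 at 8.93, and Cyp7a1 and Nr0b2 scattered widely.

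The SD library of BXD70 stood apart. Its median correlation with the other SD libraries was 0.944, against at least 0.963 for every other library with its own group, and it had the fewest reads. Between the Ctr and SD pools of BXD70, genes with over 4000 exonic bases moved lower than genes with under 1500 by a difference of medians of -0.91 (log2), against -0.24 to 0.27 in the other 38 pairs. It is the source of the highest SD level of *Cyp8b1*, *Cyp7b1*, *Nr0b2* and *Nr1h4* and of the lowest of *Abcb11*, so results that it moves are given with and without it. The part of RNA quality in these values was not tested.

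*Slc10a1*, *Cyp27a1* and *Abcb11* ranked first per length in the deposited values. Liver reads had a narrow range at the top, with no gene above 1.78 reads per exonic base on average, against 43.5 in cortex. Whether the order holds for transcript amounts was not tested. In Ctr, on the scale of log2 CPM per exonic kilobase (GENCODE M1 models, mean ± SD, n = 39), the order was *Slc10a1* (7.38 ± 0.14), *Cyp27a1* (7.26 ± 0.14), *Abcb11* (7.10 ± 0.12), *Cyp7b1* (6.76 ± 0.21), *Abcb4* (6.71 ± 0.10), *Cyp8b1* (6.68 ± 0.15), *Nr1h4* (6.42 ± 0.10), *Cyp7a1* (6.03 ± 0.30) and *Nr0b2* (5.59 ± 0.21). The order was the same in SD apart from small shifts of each mean. Neighbours differed by more than 1 SD of their difference within a pool except for *Cyp7b1* and *Abcb4* (0.04 ± 0.18, *Cyp7b1* higher in 25 of 39 pools) and *Abcb4* and *Cyp8b1* (0.03 ± 0.11, higher in 26 of 39).

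The genes lie on 8 chromosomes of mm9 (GENCODE M1 models). *Cyp7a1* spans chr4:6192759-6202780 (minus strand, 6 exons) and shares chromosome 4 with *Nr0b2* at chr4:133109291-133112451 (plus, 2 exons). *Cyp8b1* is a single-exon gene at chr9:121823474-121825423 (minus), *Cyp27a1* lies at chr1:74760148-74784464 (plus, 9 exons) and *Cyp7b1* at chr3:17971950-18143338 (minus, 6 exons). *Abcb11* lies at chr2:69076339-69180671 (minus, 29 exons), *Abcb4* at chr5:8893717-8959225 (plus, 28 exons), *Slc10a1* at chr12:82054172-82068971 (minus, 5 exons) and *Nr1h4* at chr10:88916979-88996330 (minus, 11 exons).

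Promoters are shown for 3 members: *Nr0b2*, whose change spread most over the pairs of pools, and *Abcb11* and *Slc10a1*. The Ctr levels of these last 2 moved together (r = 0.92, or 0.555 after log2 total reads were removed by regression). Each is the 250 bases before a RefSeq start on GRCm38.p6, read 5′ to 3′ along the gene, with capitals on CACGTG (an E-box) or on AGGTCA, the half-site of many nuclear receptors, on either strand (TGACCT on the other). Entries were matched for 7 of the 9 members (8 entries, with 2 starts for *Slc10a1*), and *Cyp7a1* and *Cyp7b1* have none here. The *Slc10a1* start with a match is shown, and its other start had no match.
Nr0b2, chr4:133553126-133553375, plus strand: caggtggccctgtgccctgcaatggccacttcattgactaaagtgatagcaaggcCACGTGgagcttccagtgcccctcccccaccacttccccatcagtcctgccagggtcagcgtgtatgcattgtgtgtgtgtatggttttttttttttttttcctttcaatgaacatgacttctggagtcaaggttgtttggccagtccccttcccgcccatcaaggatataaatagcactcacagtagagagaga
Abcb11, chr2:69342617-69342866, minus strand: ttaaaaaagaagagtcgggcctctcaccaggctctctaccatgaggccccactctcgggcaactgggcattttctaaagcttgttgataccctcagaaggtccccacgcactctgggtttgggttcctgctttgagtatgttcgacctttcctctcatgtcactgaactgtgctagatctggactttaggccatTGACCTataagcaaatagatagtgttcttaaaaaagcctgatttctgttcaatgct
Slc10a1, chr12:80968080-80968329, minus strand: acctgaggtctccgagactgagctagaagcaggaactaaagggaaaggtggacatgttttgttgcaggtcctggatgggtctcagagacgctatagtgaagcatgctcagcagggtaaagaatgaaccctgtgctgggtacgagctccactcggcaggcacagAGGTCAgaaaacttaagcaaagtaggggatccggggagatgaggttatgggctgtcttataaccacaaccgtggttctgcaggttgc
AGGTCA was found in 3 of the 8 member entries (*Abcb11*, *Slc10a1* and *Nr1h4*) and in 14% of 32851 promoters of the same length, and CACGTG in 1 (*Nr0b2*) and in 6.02% of all. CAAGGTCA, which contains AGGTCA, and TTATGTAA were in none of the 8, and in 1.33% and 0.819% of all. A match describes letters and not binding.

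Few of the 9 members were called for sleep deprivation in liver. Reads of the abundant members hardly varied between libraries, which limits small changes, so a missing call is not a missing change. Limma on the deposited log2 CPM called 6229 of the 14107 genes (44.2%; 21.5% of genes higher and 22.6% lower in SD) at a Benjamini-Hochberg adjusted p under 0.05, but only 1 of the 9 members, *Abcb4*, which rose. With the line as a replicate block, which pairs the Ctr and SD pools of a line, 2 of 9 were called (*Abcb4* and *Cyp7b1*, both higher), against 53.9% of all genes. With total reads as a covariate 3 of 9 were called (*Abcb4* higher, *Slc10a1* and *Nr1h4* lower), against 48.8% of all genes. With both the covariate and the block 4 of 9 were called, against 8087 of the 14107 genes. The largest mean difference of any member was 0.08 on the log2 scale (*Cyp7b1*).

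Neither gene of the classical route passed the test. *Cyp7a1* ran from 7.29 (BXD85) over a median of 8.17 to 8.52 (D2, first pool) in Ctr and from 7.25 (BXD56) over 8.09 to 8.51 (BXD66) in SD. The groups overlapped over nearly their whole range, and the gene was lower in SD in 25 of 39 lines. Its mean difference, SD minus Ctr, was -0.07 (95% CI -0.20 to 0.07, limma adjusted p = 0.44). Its change within a line reached from -0.94 in BXD101 (8.33 in Ctr, 7.39 in SD) to 0.68 in BXD85 (7.29 in Ctr, 7.98 in SD), both lines with fewer mice per pool, and its SD was 0.34. *Cyp8b1*, the 12α-hydroxylase, ran from 7.20 over 7.65 to 7.98 in Ctr and from 7.35 over 7.64 to 8.19 in SD. Its mean difference was -0.0033 (CI -0.074 to 0.068, limma adjusted p = 0.95), with 17 lines higher and 22 lower. The sign of so small a mean turned in 3 alternatives.

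Neither gene of the alternative route passed without the replicate block, and *Cyp7b1* passed with it. *Cyp7b1*, the oxysterol 7α-hydroxylase, ran from 7.09 (BXD71) over 7.90 to 8.22 in Ctr and from 7.62 (BXD79) over 7.91 to 8.46 (BXD70) in SD, and was higher in SD in 27 of 39 lines. Its difference of 0.08 (CI -0.0031 to 0.17) missed the threshold without the block (limma adjusted p = 0.12) and passed it with the replicate block (adjusted p = 0.01), where its CI was 0.027 to 0.14. *Cyp27a1*, the mitochondrial sterol 27-hydroxylase, was at 8.18 ± 0.14 in Ctr and 8.21 ± 0.14 in SD (n = 39 each) and higher in 25 of 39 lines, a difference of 0.03 (CI -0.032 to 0.092, limma adjusted p = 0.47).

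Of the canalicular exporters, *Abcb4* rose and *Abcb11* was not called. *Abcb4* ran from 8.52 over 8.74 to 9.03 in Ctr and from 8.53 over 8.82 to 9.06 in SD, with 26 of 39 lines higher, 13 lower and the groups overlapping. Its rise of 0.06 (CI 0.016 to 0.11, limma adjusted p = 0.025; 0.0029 with the replicate block; 0.012 with total reads as a covariate) lost its call among the 33 BXD/RwwJ lines alone (adjusted p = 0.062). *Abcb11* ran from 9.17 (BXD103) over 9.42 to 9.83 (F1 DB) in Ctr and from 8.93 (BXD70) over 9.48 to 9.65 (D2, second pool) in SD. It was higher in SD in 28 of 39 lines, with a mean difference of 0.03 (CI -0.029 to 0.082, limma adjusted p = 0.47). BXD70 lost 0.64 (9.57 to 8.93, or 4591 to 2295 reads), and without this line the difference was 0.04 (limma adjusted p = 0.14), or 0.03 as the adjusted p with the replicate block.

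*Slc10a1* and the receptors *Nr1h4* and *Nr0b2* were not called in the main fit. *Slc10a1* ran from 7.75 over 8.01 to 8.44 in Ctr and from 7.77 over 8.03 to 8.35 in SD, with 22 of 39 lines lower, a difference of -0.03 (CI -0.094 to 0.032, limma adjusted p = 0.46). With total reads as a covariate its fitted difference was -0.05 (CI -0.065 to -0.025) and passed (limma adjusted p = 1e-04). *Nr1h4* was at 7.62 ± 0.10 in Ctr and 7.58 ± 0.09 in SD (n = 39 each), lower in 23 of 39 lines (-0.04, CI -0.080 to 0.0056, limma adjusted p = 0.16); it passed with total reads as a covariate (-0.05, adjusted p = 0.0035) and after quantile normalization (adjusted p = 0.0038). *Nr0b2* ran from 5.30 (BXD100) over 5.82 to 6.07 (B6, first pool) in Ctr and from 5.22 (BXD101) over 5.84 to 6.62 (BXD70) in SD. It split evenly, with 19 lines higher and 20 lower, and its mean difference was -0.01 (CI -0.13 to 0.10, limma adjusted p = 0.86).

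**Figure D2:**
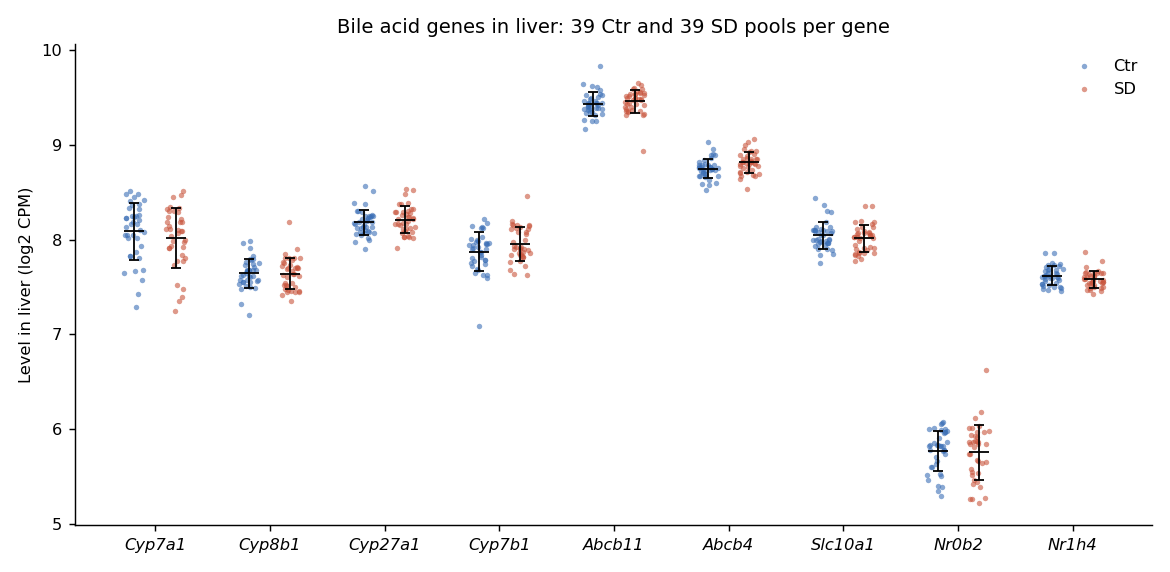
Level of each of the 9 genes in liver in log2 CPM (y), with 1 point per pool (39 Ctr in blue, 39 SD in red) and the mean ± SD in black. Ctr and SD overlap for every gene, Nr0b2 sits lowest at about 5.8, and Cyp7a1 has the widest spread of the enzymes.

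The spread of the change over the 39 pairs of pools was larger than its mean for all 9 genes. With 1 pool per line and condition, it holds differences between pools as well as between lines. For *Cyp7a1* the 2 B6 pairs, of 1 genotype, changed by 0.411 and -0.181, and the 2 D2 pairs by -0.066 and -0.003. The SD of the change over 39 lines was largest for *Nr0b2* (0.38) and *Cyp7a1* (0.34), between 0.11 and 0.18 for the other 7, and smallest for *Abcb4* (0.11). *Nr0b2* fell by 0.78 in BXD101 and rose by 1.02 in BXD70 (293 to 464 reads), and its SD was 0.35 without BXD70. The F1 DB pair had the lowest change of 6 members (*Cyp8b1*, *Cyp27a1*, *Cyp7b1*, *Abcb4*, *Slc10a1* and *Nr1h4*). Its Ctr library had the fewest reads of all Ctr libraries (5034166) and its SD library 6563242. Over the 39 lines the change followed the change in log2 total reads for *Slc10a1* (r = -0.95, rho = -0.95, permutation p = 1e-05, adjusted p = 1.7e-05) and *Cyp27a1* (r = -0.94, rho = -0.94, permutation p = 1e-05, adjusted p = 1.7e-05) and not detectably for *Cyp7a1* (r = 0.07, rho = 0.12, permutation p = 0.69, adjusted p = 0.69).

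**Figure D3:**
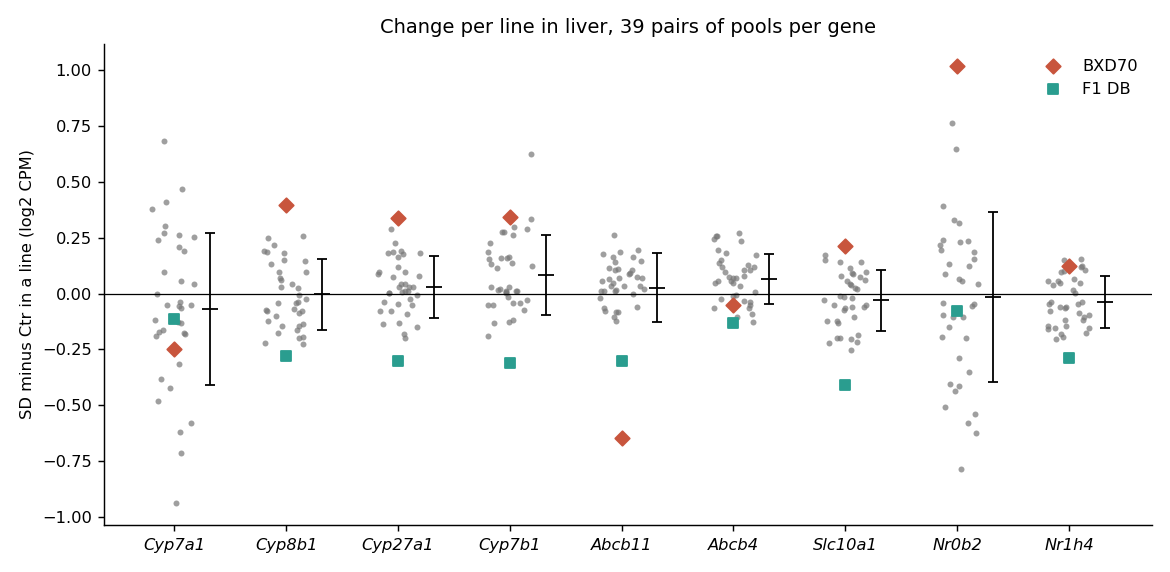
SD minus Ctr in log2 CPM (y) for each of the 9 genes, with 1 grey point per line or parental pool, BXD70 as red diamonds, F1 DB as green squares and the mean ± SD of the 39 pairs in black. Cyp7a1 and Nr0b2 spread by up to 1 unit in both directions, F1 DB is lowest for 6 genes and BXD70 is highest for Nr0b2 and lowest for Abcb11.

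The line effect was called for members about as often as for all genes. The Ctr and SD pools of a line come from different mice, so a line effect over both asks whether its genotype, or anything else the 2 pools share, sets the level. Limma's F test of the line was passed by 6 of 9 members, against 57.9% of all genes, with adjusted p of 5.9e-05 for *Cyp7b1*, 5.3e-04 for *Slc10a1*, 6.4e-04 for *Cyp8b1*, 7.1e-04 for *Cyp27a1*, 0.0037 for *Cyp7a1* and 0.0056 for *Abcb4*. It was not passed by *Abcb11* (limma adjusted p = 0.073), *Nr1h4* (0.099) and *Nr0b2* (0.63). With total reads as a covariate, against 44.0% of all genes, *Slc10a1* lost the call (limma adjusted p = 0.057) and the other 5 kept it, among them *Cyp7b1* (6.7e-05) and *Cyp27a1* (4.1e-04). Without BXD70, *Abcb11* passed (limma adjusted p = 0.0012), and with each library centred on its median both *Abcb11* (0.032) and *Nr1h4* (0.033) did.

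The correlation of Ctr with SD levels over the 39 pools was highest for *Cyp7b1* (r = 0.58, rho = 0.55, permutation p = 2.3e-04, adjusted p over the 9 members 0.0021), and r was 0.56 without the 2 pools farthest from the median. *Slc10a1* (r = 0.52, rho = 0.47), *Cyp27a1* (r = 0.51, rho = 0.50), *Cyp8b1* (r = 0.51, rho = 0.52), *Abcb4* (r = 0.45, rho = 0.34) and *Cyp7a1* (r = 0.39, rho = 0.44) followed, with adjusted permutation p between 0.0027 and 0.02. For *Abcb11* r was 0.24 (rho = 0.50, permutation p = 0.14) with BXD70 and 0.52 without it. *Nr1h4* (r = 0.26, rho = 0.18, permutation p = 0.12, adjusted p = 0.15) and *Nr0b2* (r = -0.11, rho = -0.11, permutation p = 0.5) did not pass. After log2 total reads were removed by regression, r was 0.64 for *Cyp27a1*, 0.62 for *Cyp7b1*, 0.45 for *Slc10a1*, 0.26 for *Cyp7a1* and 0.02 for *Nr1h4*. For *Cyp7b1*, BXD71 was the lowest Ctr pool (7.09) and 0.63 higher in SD, the largest rise of any line for this gene.

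**Figure D4:**
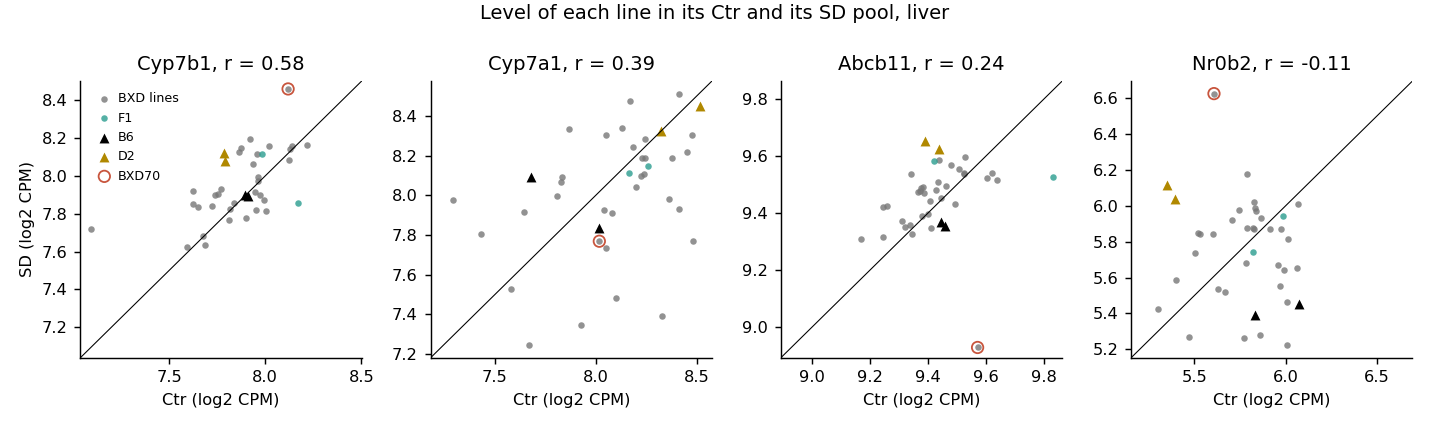
SD level (y) against Ctr level (x) of each line in liver, both in log2 CPM, for Cyp7b1, Cyp7a1, Abcb11 and Nr0b2 with Pearson's r over 39 pools. BXD lines are grey, F1 pools green, B6 and D2 pools triangles, BXD70 is ringed, and the line marks equal levels. Cyp7b1 follows the diagonal, BXD70 lies far below it for Abcb11, and for Nr0b2 the B6 pools lie below and the D2 pools above it.

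The parental strains differed in *Cyp7a1*. In Ctr the B6 pools had 7.68 and 8.02 and the D2 pools 8.52 and 8.32, and in SD the B6 pools had 8.09 and 7.83 and the D2 pools 8.45 and 8.32. Both D2 pools were above both B6 pools in each condition, and the F1 pools lay between the strain means in Ctr and SD (8.17 and 8.26, 8.12 and 8.15). D2 minus B6 was 0.50 (CI 0.31 to 0.68, limma over 8 libraries with condition as a covariate, adjusted p = 9.5e-04), against 8.42% of all genes called higher in D2. The call held with total reads as a covariate (0.56, limma adjusted p = 0.014). Among the 33 BXD lines, 8 lay below and 3 above both strain means in Ctr, and 13 below and 2 above in SD. *Nr0b2* was level over both conditions (0.04) but lower in D2 in Ctr alone (-0.58, limma adjusted p = 0.0058) and higher in SD alone (0.66, 0.0031). With total reads as a covariate the fitted difference of *Nr0b2* was -0.51 and passed (limma adjusted p = 0.028). Total reads rose with SD in B6 and fell in D2, as given below. This fitted value therefore cannot be read as a lower level of D2 in both conditions. Without that covariate no other member was called over both conditions, and the next was *Cyp8b1* (0.22, CI 0.065 to 0.38, limma adjusted p = 0.051), which had 7.57 and 7.65 in B6 and 7.68 and 7.62 in D2 in Ctr, and 7.35 and 7.45 in B6 and 7.81 and 7.80 in D2 in SD.

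The parental strains also moved in opposite directions with SD for *Nr0b2*. In B6 it went from 6.07 and 5.83 in Ctr to 5.45 and 5.39 in SD, and in D2 from 5.39 and 5.35 to 6.04 and 6.12. The 4 groups did not overlap between Ctr and SD within a strain, and the strain by condition term was 1.24 (CI 0.93 to 1.54, limma adjusted p = 0.0089), against 5.44% of all genes with a positive call. The term was positive and called for 6 of 9 members, with 0.40 for *Cyp27a1*, 0.37 for *Cyp8b1*, 0.32 for *Cyp7b1*, 0.31 for *Abcb11* and 0.31 for *Slc10a1*, and was not called for *Abcb4* (0.15, limma adjusted p = 0.21), *Nr1h4* (0.18, 0.31) and *Cyp7a1* (-0.15, 0.63). Total reads moved in the opposite sense, from 6732104 and 6584349 to 7491781 and 7250062 in B6 and from 6547019 and 6848193 to 5785013 and 5690812 in D2, so depth and this term cannot be told apart in these 8 libraries. With total reads as a covariate no member was called, and the fitted term was -0.0054 for *Cyp27a1*, 0.0094 for *Slc10a1*, -0.13 for *Cyp8b1* and 1.51 for *Nr0b2* (CI 0.10 to 2.91, limma adjusted p = 0.76). No member was called either with any 1 parental pool left out or without the variance trend. With total reads as a covariate, and without the trend, 0 of all 14107 genes were called. The missing calls of these 2 fits are thus not particular to the members. Calls over all genes with a pool left out are not given here.

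Outside the liver, 3 of the 9 members were listed in cortex, and all 3 fell with SD. Cortex libraries held 18995492 to 28998853 reads, summed over the listed genes. *Abcb4* went from 2.68 ± 0.18 to 2.17 ± 0.24 (n = 39 each), lower in 37 of 39 lines, a difference of -0.51 (CI -0.61 to -0.42, limma adjusted p = 1.8e-16). *Cyp7b1* went from 3.59 ± 0.14 to 3.40 ± 0.13, lower in 35 of 39 lines (-0.19, CI -0.25 to -0.13, limma adjusted p = 8.8e-08). *Cyp27a1* went from 2.25 ± 0.26 to 2.10 ± 0.28, lower in 26 of 39 (-0.14, CI -0.26 to -0.025, limma adjusted p = 0.028), and lost its call after quantile normalization (0.2), in the 33 BXD/RwwJ lines alone (0.14) and with parental pools averaged (0.067). Of all cortex genes 35.4% were called lower. Within lines, the response was higher in liver than in cortex by 0.58 for *Abcb4* (limma adjusted p = 4.2e-12), 0.27 for *Cyp7b1* (3.1e-08) and 0.17 for *Cyp27a1* (0.0028), all 3 called, against 28.0% of genes called higher in liver. The tables of the tissues were normalized separately, so only changes and no levels are compared. Reads of the abundant members hardly varied between liver libraries, which limits small changes in liver. No liver gene passed 1.78 reads per exonic base on average, against 43.5 for the highest in cortex. The part of this limit in the tissue differences was not tested.

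Most pairs of members varied together over the pools, and few did once the totals were removed. Of 108 relations (36 pairs over Ctr levels, SD levels and changes), 64 passed a permutation test after Benjamini-Hochberg adjustment, all positive, with a median r of 0.45. After log2 total reads were removed by regression 7 passed and the median r was 0.10. The strongest pair in each measure was *Cyp27a1* with *Slc10a1*, with r = 0.93 in Ctr (rho = 0.89), 0.93 in SD (rho = 0.93) and 0.92 for the change (rho = 0.92), each with a permutation p of 1e-05 (adjusted 3.9e-05), falling to 0.57, 0.36 and 0.26 without the totals. Uptake and export went together in Ctr (*Abcb11* with *Slc10a1*, r = 0.92, rho = 0.86, permutation p = 1e-05, adjusted p = 3.9e-05), and this pair kept r = 0.56 after the totals were removed (adjusted permutation p = 0.0065). In SD its r was 0.27 with BXD70 and 0.82 without it, and 0.28 after the totals were removed (with BXD70, adjusted permutation p = 0.28). The exporters *Abcb11* and *Abcb4* had r = 0.75 in Ctr (rho = 0.66, permutation p = 1e-05, adjusted p = 3.9e-05), 0.53 in SD and 0.50 for the change, and 0.43 to 0.50 after the totals were removed (adjusted permutation p from 0.051 to 0.054). *Cyp27a1* with *Cyp7b1* had r = 0.59 in Ctr (rho = 0.67, permutation p = 1.3e-04, adjusted p = 3.9e-04) and 0.31 after the totals were removed.

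The negative feedback pairs showed no inverse relation that passed. *Nr0b2* with *Cyp7a1* had r = -0.20 in Ctr (rho = -0.11, permutation p = 0.22, adjusted p = 0.28), -0.02 in SD (rho = -0.01, permutation p = 0.89) and -0.13 for the change (rho = -0.30, permutation p = 0.43, adjusted p = 0.51). *Nr0b2* with *Cyp8b1* had r = 0.06 in Ctr (rho = 0.02, permutation p = 0.71) and 0.44 in SD (rho = 0.32, permutation p = 0.0053, adjusted p = 0.01), which was 0.24 without BXD70 and -0.06 after the totals were removed. The receptor *Nr1h4* and its target *Nr0b2* had r = 0.08 in Ctr (rho = 0.10, permutation p = 0.65) and 0.61 in SD (rho = 0.55, permutation p = 6e-05, adjusted p = 2e-04), or 0.47 without BXD70 and 0.37 after the totals were removed (adjusted permutation p = 0.12). *Nr1h4* with *Abcb11* had r = 0.74 in Ctr (rho = 0.68, permutation p = 1e-05, adjusted p = 3.9e-05) and 0.02 after the totals were removed. The rate-limiting enzyme and the 12α-hydroxylase, *Cyp7a1* with *Cyp8b1*, had r = 0.40 in Ctr (rho = 0.45, permutation p = 0.012, adjusted p = 0.022) and 0.18 after the totals were removed.

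Genes with the most similar levels over the 78 liver libraries, with condition means removed, are given as a description, since all libraries share the scaling and the totals above. *Cyp7a1* was most like *BC005537* (r = 0.64), *Akr1d1* (0.62), a later enzyme of bile acid synthesis, and *Fmo5* (0.60), and *Nr0b2* was most like *Efna1* (0.62), *8430408G22Rik* (0.57) and *Maea* (0.56). *Cyp7b1* was most like *Selenbp2* (0.83), *Slco1a1* (0.81), an organic anion carrier, and *Hsd3b5* (0.81). *Slc10a1* was most like *Sod1* and *Sepp1* (0.97 each) and *Cyp27a1* most like *Itm2b* (0.96), *Rbp4* and *Cyp2e1* (0.95 each), all abundant liver transcripts. *Abcb11* was most like *Apob* (0.90), *Hdlbp* and *Cald1* (0.88 each), *Cyp8b1* like *Hadh* (0.90), *Etfdh* and *Acat3* (0.89 and 0.88), *Nr1h4* like *Hadhb* (0.84), *Glyat* and *Atp5c1* (0.82 each), and *Abcb4* like *Acsf2* (0.83), *Abcd3* and *Hsd17b4* (0.79 each). Once log2 total reads were also removed, the highest r was 0.76 for *Cyp7b1* (*Selenbp2*), 0.63 for *Slc10a1* (*Pygl*) and 0.90 for *Abcb11* (*Fn1*), 3 genes named after their values were seen.

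Around the 9 members, the wider pathway was called about as often as all genes. Of 54 further genes 47 were listed, and 7 rose, 12 fell and 28 were not called, against 44.2% of all genes called (21.5% higher, 22.6% lower). Their median log2 difference was -0.0030, against -0.0020 for all genes. With the replicate block 10 rose and 16 fell, and with total reads as a covariate 10 rose and 15 fell. Of all genes 53.9% and 48.8% were called in these fits. Of the canalicular transporters 6 of 7 were lower and none higher (median -0.19; 5 of 7 with libraries median-centred), whereas *Abcb4* among the members rose. The sterol half-transporters *Abcg5* (-0.33, limma adjusted p = 1.6e-11) and *Abcg8* (-0.27, 1.2e-09), the conjugate pump *Abcc2* (-0.19, 4.7e-05), the phospholipid flippase *Atp8b1* (-0.18, 6.2e-05), *Abcg2* (-0.09, 0.024) and *Abcb1a* fell, and *Tmem30a* was at 0.0067 (0.85). *Abcb1a*, the multidrug pump, ran from 3.13 over 4.14 to 5.27 in Ctr and from 1.64 (BXD70) over 3.71 to 4.46 in SD, lower in 35 of 39 lines (-0.62 ± 0.12 SE, limma adjusted p = 4.5e-06). Besides *Slc51b*, *Abcb1a*, *Fgfr4*, *Klb*, *Nr5a2*, *Hnf4a* and *Baat*, genes of the wider pathway are named after their values were seen.

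On the basolateral side 2 of 9 listed genes fell and 1 rose. With the replicate block or with total reads as a covariate 3 fell and 1 rose. Of all genes 44.2% were called in the main fit (21.5% higher, 22.6% lower), 53.9% with the block and 48.8% with total reads. *Slc51b*, a subunit of the basolateral bile acid efflux carrier and an FXR target, ran from -0.87 over 1.35 to 2.33 in Ctr (3 to 37 reads, median 17) and from -2.75 (0 reads) over -0.88 to 2.26 in SD (median 3 reads), lower in 36 of 39 lines. The difference was -1.91 ± 0.22 (SE, limma adjusted p = 1.8e-11) on the log2 CPM scale with the prior count of the authors, which sets its size where reads are 0. This gene was in the list with earlier results known. *Slco1a4* fell (-0.42, limma adjusted p = 0.0049) and *Slco2b1* rose (0.10, 0.002). The uptake carriers *Slco1a1* (0.04) and *Slco1b2* (-0.0035), like *Slc10a1*, were not called.

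Of 12 listed synthesis enzymes 2 fell, *Hsd3b7* (-0.16, limma adjusted p = 3.2e-06) and *Akr1d1* (-0.15, 2.4e-05), which act on the steroid ring after CYP7A1, and none rose, against 22.6% of all genes lower and 21.5% higher. With total reads as a covariate 3 rose and 3 fell, against 48.8% of all genes called. With the replicate block 3 rose and 2 fell, against 53.9% of all genes called. Among those that rose was *Cyp39a1*, an oxysterol 7α-hydroxylase, at 0.44 (limma adjusted p = 0.22 without the block, 9.3e-07 with it). Neither of the 2 listed conjugation genes was called in the main fit. *Baat*, which joins bile acids to taurine, was at 7.68 ± 0.11 in Ctr and 7.66 ± 0.12 in SD (-0.02, limma adjusted p = 0.48), and was called lower with total reads as a covariate (-0.04, 0.004).

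Among 16 listed regulators 5 rose and 2 fell, a share near that of all genes (44.2% called). With the replicate block 5 rose and 5 fell, against 53.9% of all genes called. Among those that rose were *Nr1i2* (0.15, limma adjusted p = 5.4e-05), *Hnf4a* (0.09, 9.9e-04), *Nr1h3* (0.08, 0.0069) and *Rxra* (0.06, 0.012), the partner of FXR, and *Mafg* (-0.19, 8.8e-06) and *Smarcd1* (-0.175, 0.019) fell. *Hnf4a*, which drives hepatocyte genes including *Cyp7a1*, ran from 8.64 over 8.90 to 9.23 in Ctr and from 8.81 over 8.98 to 9.20 in SD and was higher in 29 of 39 lines. Of the receptor arm for the ileal hormone FGF15, *Fgfr4* was at 7.17 ± 0.16 in both conditions (-0.0029, limma adjusted p = 0.96) and its co-receptor *Klb* at 6.79 ± 0.15 and 6.71 ± 0.19 (-0.08, 0.087, or 0.038 with the replicate block). *Nr5a2* (LRH-1), an activator of *Cyp7a1*, was at 7.06 ± 0.13 and 7.06 ± 0.25 (0.0029, limma adjusted p = 0.97), with its lowest level, 5.79, in BXD70 SD. Of the ileal arm only *Slc10a2*, which bile duct cells also use, was listed in liver, and it rose (0.49, limma adjusted p = 1e-05), while cholangiocyte markers as a list had 2 of 8 lower and none higher.

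**Figure D5:**
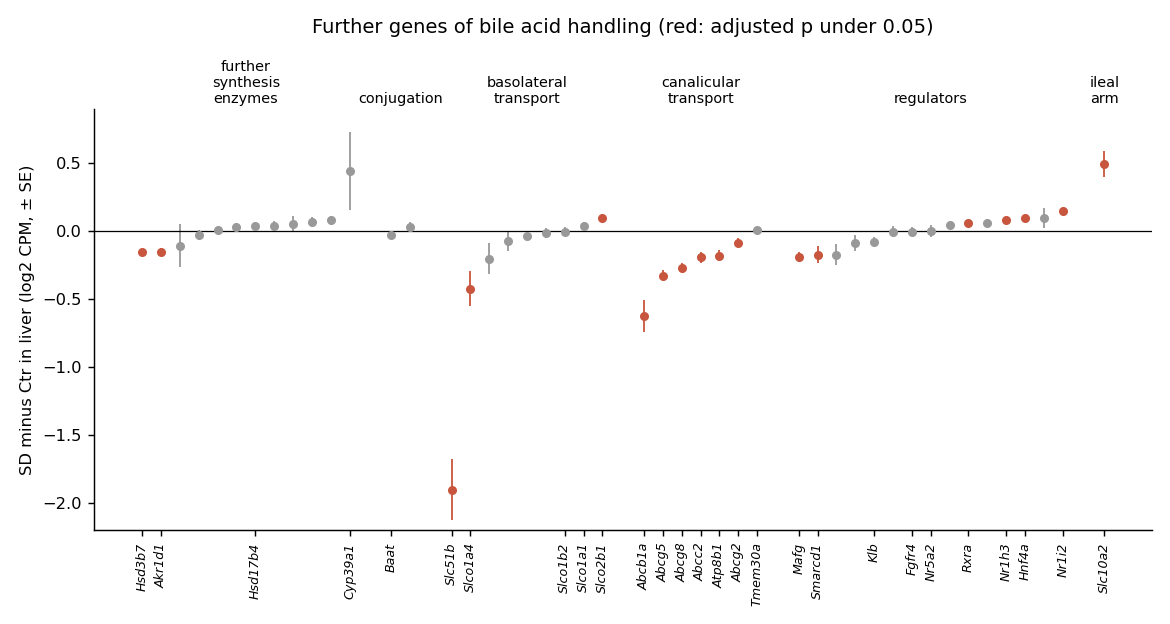
SD minus Ctr in liver, in log2 CPM with ± SE (y), for the listed genes of the wider pathway except 1 regulator (x), grouped by role and ordered by size, with called genes in red and names for genes given in the text. Slc51b at -1.91 lies lowest, and 6 of 7 canalicular transporters lie below 0 and are called. Synthesis enzymes and regulators lie on both sides of 0, with Cyp39a1 at 0.44 the highest of the enzymes.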

How the data were processed

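Liver and cortex RNA of BXD, parental and F1 pools was measured by stranded single-end RNA-seq. The authors aligned reads to mm9 with STAR, counted them per RefSeq gene with HTSeq, left out low-count genes and deposited log2 CPM values scaled by edgeR's TMM with a prior count of about 1. Whole reads were recovered from these values, for 100% of the entries with low reads that were checked (tolerance 0.02). Entries with more reads, among them most values of the members, were rounded without this check. Summed over the listed genes, these reads gave the depths in the text. No column of per-sample values went unused. Ctr and SD were compared with limma 3.58.1 (R 4.3.3, variance trend, Benjamini-Hochberg over all listed genes, threshold 0.05) on 39 pools per condition, without a block as the main fit. The tissue difference was fitted on within-line changes without a trend. P-values measure the spread between pools. Correlations used 100000 resamples (two-sided) in Python 3.11.15 with scipy 1.17.1. Same-line Ctr and SD pools share a genotype and deviated together (39 pairs, lowest r 0.169, median 0.475, against a median of -0.018 for different lines), so line pairs them. Gene models are GENCODE M1 (mm9) and promoters RefSeq (GRCm38.p6), with no conversion between builds. The fits were tested on simulated data. Members and lists were chosen with earlier results of these data known. Genes named were all members, wider-list genes called with an absolute log2 change of at least 0.5, *Fgfr4*, *Klb*, *Nr5a2*, *Hnf4a* and *Baat*, and the 3 genes most like each member; a few of these and of the lists are not reported here. Alternatives were other scalings, filters, line sets, weights, blocks and each line left out.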

Additional observations from a re-analysis of the deposited data

Results flagged for a closer look

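The SD response differed between liver and cortex for all 3 members listed in both, by 0.175 for *Cyp27a1*, 0.268 for *Cyp7b1* and 0.578 for *Abcb4* (liver minus cortex, log2, tested within lines). The narrow range of liver reads limits small changes in liver, and its part in these differences was not tested.

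The SD response differed between the parental strains, as the change in D2 minus the change in B6, by 1.24 for *Nr0b2*, 0.403 for *Cyp27a1*, 0.365 for *Cyp8b1*, 0.317 for *Cyp7b1*, 0.313 for *Abcb11* and 0.308 for *Slc10a1*. These rest on 2 pools per strain and condition, were not called with any 1 pool left out, and move with the library totals given above.

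Among the 4 BXD/TyJ lines, the SD level of *Cyp27a1* in BXD29t lay apart from the others, with a gap of 0.895 of the group's range, above Dixon's 95% critical value. It was the only 1 of 24 such groups, and chance gives about 1 in 20. The 24 groups share the same few libraries. In SD, BXD29t also lay farthest for *Slc10a1* (0.782) and *Nr1h4* (0.72), both not flagged. Its SD library held the most *Cyp27a1* reads of the 4 (2215, against 2001, 1986 and 1803). Over the 39 main SD pools this gene was lower where total reads were higher (r = -0.94). The part of depth here was not tested.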

How the results depend on the processing

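The SD response in liver called 1 of 9 members. It called 2 with the replicate block, with and without voom weights, 3 with total reads as a covariate, after quantile normalization, and without BXD70 with the replicate block, 4 with total reads and the replicate block, and 0 in the 33 BXD/RwwJ lines alone. It called 1 with each line left out. Over all 14107 genes 6229 were called in the main fit, 7603 with the block and 7724 with the block and voom weights. With total reads 6890 were called, after quantile normalization 6365, and without BXD70 with the block 7895. With total reads and the block 8087 were called, and in the BXD/RwwJ lines alone 5573. *Cyp8b1* turned to 0.000287 in the BXD/RwwJ lines, 0.00262 when median-centred and 0.00213 without BXD79, BXD85 and BXD101. With each line left out it ran from -0.0138 to 0.00395, and *Nr0b2* from -0.042 to 0.00537.

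For D2 against B6, 1 member was called in the main comparison, 2 in Ctr alone, with log2(CPM+1), after quantile normalization and with total reads as a covariate, and 7 in SD alone. In Ctr alone and with total reads as a covariate, in that order, the difference turned to -0.128 and -0.119 for *Cyp27a1*, -0.115 and -0.101 for *Cyp7b1*, -0.0354 and -0.0244 for *Abcb11*, -0.0336 and -0.0362 for *Abcb4*, -0.0382 and -0.0311 for *Slc10a1*, -0.58 and -0.512 for *Nr0b2*, and -0.0591 and -0.0657 for *Nr1h4*. After quantile normalization it was -0.0176 for *Cyp7b1* and -0.016 for *Abcb4*. With each pool left out, *Nr0b2* ran from -0.0372 to 0.113 and *Nr1h4* from -0.0437 to 0.101. Over all 14107 genes 2524 were called, against 1486 with total reads, 1583 in Ctr alone and 3420 in SD alone. With log2(CPM+1) 2575 were called, and after quantile normalization 2856. The SD libraries held 7491781 and 7250062 reads in B6 and 5785013 and 5690812 in D2. Depth and strain cannot be told apart in SD alone.

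The strain by condition term called 6 members, 2 after quantile normalization, and 0 with total reads, without the variance trend and with any pool left out. With total reads it turned to -0.13 for *Cyp8b1*, -0.00541 for *Cyp27a1*, -0.228 for *Abcb4* and -0.395 for *Nr1h4*, and after quantile normalization to -0.0569 for *Abcb4*. With each pool left out *Cyp7a1* ran from -0.446 to 0.147. Over all genes 1014 were called, against 1612 when median-centred, 546 after quantile normalization and 0 with total reads or without the trend. Pools as a replicate block left 6 members called, with 1340 called over all genes. Relations fell from 64 to 7 of 108 without the totals. The cause of these shifts was not tested. Alternatives with total reads, without BXD70, or with pools blocked or cortex parental pools averaged were chosen after seeing the data. Depth and the narrow range of reads limit small changes of abundant members.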
